A study of Mus musculus with 4 samples.

Results

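The 8 genes described here encode proteins that handle acid and bicarbonate. They are the carbonic anhydrases *Car2*, *Car9*, *Car12*, *Car13* and *Car14* and the bicarbonate carriers *Slc4a2*, *Slc4a4* and *Slc4a7*. Their rule is a list of symbols with no threshold on a measured value, drawn up with earlier results of these data known, and all 8 were found among the 39179 genes of the count tables. RNA was sequenced from 4 libraries of B16F1, a mouse melanoma cell line, with 2 libraries of parental control cells and 2 of tumor repopulating cells (TRCs). Parental cells grow on rigid 2D culture dishes. TRCs were isolated on day 5 from soft 3D fibrin gels of 90 Pa stiffness that had been seeded with single parental cells. The gels were set in wells holding thrombin, the protease that turns fibrinogen into fibrin. Most seeded cells do not survive in the gel, so the effects of survival, of the gel, of thrombin and of the 3D culture cannot be told apart in this design. The libraries of each group carry the replicate numbers 1 and 3. Nothing in the labels says whether they came from separate cultures, so p-values measure only the spread between these libraries, which may be technical.

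Carbonic anhydrases are zinc enzymes that interconvert carbon dioxide and water with bicarbonate and a proton. *Car2* and *Car13* encode cytosolic enzymes, while *Car9*, *Car12* and *Car14* encode membrane enzymes whose catalytic domain faces the outside of the cell. The SLC4 carriers move bicarbonate across the plasma membrane. Exchange for chloride without sodium loads the cell with acid, while transport coupled to sodium, with or without chloride, usually removes acid. In tumors, *CA9*, the human counterpart of *Car9*, is known as a target of the hypoxia-inducible factor HIF-1, which binds the letters ACGTG or GCGTG in hypoxia response elements.

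The depth was between 35948295 and 43511554 counts on genes per library. A level is given as TMM-normalized CPM, which is counts on a gene relative to the TMM-scaled library total, and 3 counts, taken as the smallest detectable number, correspond to between 0.0674 and 0.0849 CPM, a limit for counting error only. All 11 melanocyte markers examined were at 1 CPM or more in every library, with summed levels of 16303.1 and 19495.5 CPM in parental cells and 24885 and 27572.5 CPM in TRCs. Erythroid cells are rich in carbonic anhydrase, and 5 of their markers, those of the globins and of heme synthesis, were at 0 in every library. Leukocyte markers summed to between 1.71 and 4.96 CPM, with 5 of 8, among them *Ptprc*, at 0, and endothelial and epithelial markers to at most 0.198 and 1.83 CPM. The 6 fibroblast markers summed to 9.82 and 11.4 CPM in parental cells and 3.12 and 5.79 CPM in TRCs, and their part in the results was not tested. In bulk RNA, fewer cells of a type and less RNA per cell cannot be told apart.

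The stretch before the transcription start is shown for *Car9*, *Car12*, *Car14* and *Slc4a4*, because the 3 membrane anhydrases differed in their response while *Slc4a4* moved the other way. Each is the 250 bases before a RefSeq start on GRCm38.p6, 5′ to 3′ on the gene's strand, and capitals mark ACGTG or GCGTG on either strand, which read CACGT or CACGC where they lie on the opposite strand.
*Car9* (chr4:43506776-43507025, plus strand): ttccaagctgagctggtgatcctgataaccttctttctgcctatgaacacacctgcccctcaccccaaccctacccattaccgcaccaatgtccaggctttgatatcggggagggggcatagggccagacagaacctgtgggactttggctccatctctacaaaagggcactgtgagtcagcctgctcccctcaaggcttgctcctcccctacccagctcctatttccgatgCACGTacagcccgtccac
*Car12* (chr9:66713436-66713685, plus strand): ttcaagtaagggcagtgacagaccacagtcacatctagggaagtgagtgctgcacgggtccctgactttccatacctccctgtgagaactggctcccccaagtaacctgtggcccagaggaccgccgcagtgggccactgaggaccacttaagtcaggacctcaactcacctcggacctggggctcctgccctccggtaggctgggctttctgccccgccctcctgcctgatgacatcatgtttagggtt
*Car14* (chr3:95904686-95904935, minus strand): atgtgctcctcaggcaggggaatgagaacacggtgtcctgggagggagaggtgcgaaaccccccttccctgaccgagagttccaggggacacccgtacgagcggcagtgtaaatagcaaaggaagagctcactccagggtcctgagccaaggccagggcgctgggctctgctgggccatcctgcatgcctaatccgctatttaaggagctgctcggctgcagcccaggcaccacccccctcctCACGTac
*Slc4a4*, upstream start (chr5:88887010-88887259, plus strand): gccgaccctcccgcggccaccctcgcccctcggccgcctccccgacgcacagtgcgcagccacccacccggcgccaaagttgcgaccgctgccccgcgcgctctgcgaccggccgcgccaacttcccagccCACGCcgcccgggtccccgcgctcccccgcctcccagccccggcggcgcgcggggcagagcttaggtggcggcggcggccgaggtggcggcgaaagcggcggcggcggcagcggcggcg
*Slc4a4*, downstream start (chr5:89027716-89027965, plus strand): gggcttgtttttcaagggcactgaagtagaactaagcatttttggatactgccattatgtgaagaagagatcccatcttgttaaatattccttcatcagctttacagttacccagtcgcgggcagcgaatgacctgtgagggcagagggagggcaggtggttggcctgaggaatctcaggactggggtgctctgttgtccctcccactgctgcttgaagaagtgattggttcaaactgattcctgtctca

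The RefSeq table held starts for 6 of the 8 genes, and *Car2* and *Car13* had none in it. The letters ACGTG occurred in the windows of *Car9* and *Car14*, beginning 18 and 7 bases before the start, and in 16.6% of 32851 windows of the same length. The annotated gene begins upstream of these letters in *Car9* and within them in *Car14*. In both genes the match extended to TACGTG, a longer form chosen after the sequences were seen, which 2.72% of all windows held. The letters GCGTG occurred at 1 of 2 starts of *Slc4a2* and at the upstream start of *Slc4a4*, and in 28.2% of all windows. Neither form was found before *Car12* or *Slc4a7*. *Car9* and *Car14* therefore shared these letters near their starts, while their RNA levels behaved differently, as described next. A match is a description of the sequence and not of binding.

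Carbonic anhydrase transcripts *Car9*, *Car2* and *Car12* rose in TRCs and the sodium bicarbonate cotransporter transcript *Slc4a4* fell, while the abundant members *Car14*, *Slc4a2*, *Slc4a7* and *Car13* did not pass the test. All 8 genes were among the 11483 that passed the filter on low counts, and 4 had a false discovery rate (FDR) under 0.05 in edgeR's exact test with Benjamini-Hochberg adjustment over all genes tested, a call made for 15.9% of those genes. Of the 4, 3 were higher in TRCs, where the call was made for 8.81% of all genes tested, and 1 was lower, where it was made for 7.05%. The median log2 fold change was 0.25 over the 8 genes and 0.0034 over all genes tested. For 7 of the 8 genes the TRC libraries lay wholly above or wholly below the parental libraries, but this was also true of 60.6% of all genes tested. With 2 against 2 libraries an exact permutation test (two-sided) cannot go below 0.333, so the calls rest on the model fitted across genes. Of the 32 values of the 8 genes, 1 was below 1 CPM, that of *Car2* in parental replicate 3, and 0 genes were below 1 CPM in every library.

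**Figure D1:**
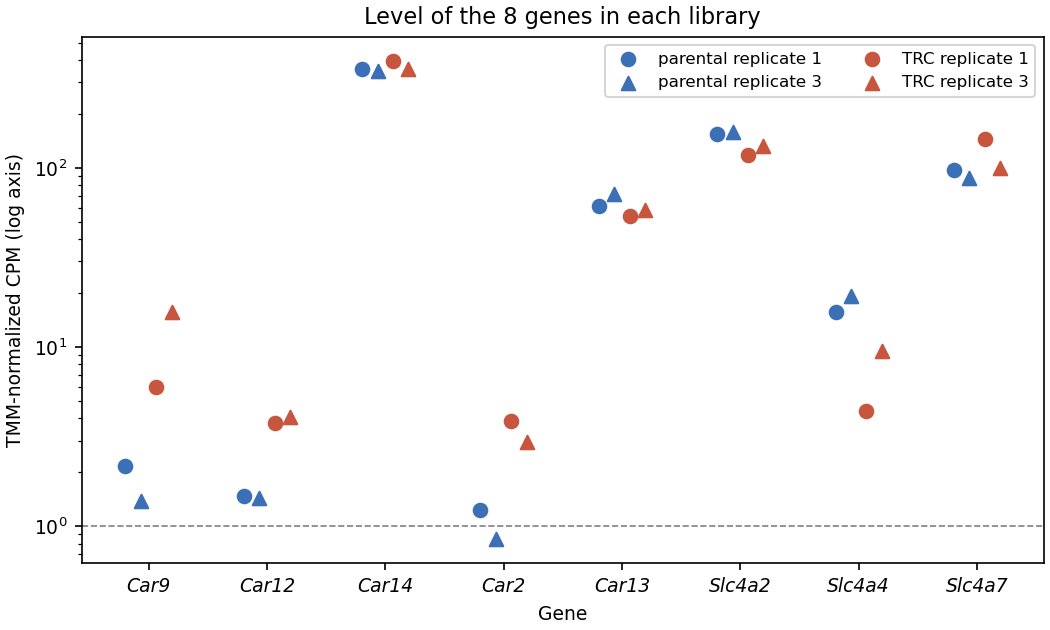
TMM-normalized CPM on a log axis for each of the 8 genes, with 1 point per library (blue for parental, red for TRC, circles for replicate 1, triangles for replicate 3) and a dashed line at 1 CPM. The TRC points of *Car9*, *Car12* and *Car2* lie above the parental points, those of *Slc4a4* lie below, and *Car14* is between 345 and 396 CPM in all 4 libraries.

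*Car9* (ENSMUSG00000028463, chromosome 4 from 43506966 to 43513729 on GRCm38, plus strand) encodes the membrane enzyme best known from hypoxic tumors. Parental replicates 1 and 3 gave 97 and 49 counts on it, and the TRC libraries, in the same order, 248 and 652. These are levels of 2.18 and 1.39 CPM in parental cells and 5.96 and 15.7 CPM in TRCs. Both TRC libraries were above both parental libraries, and TRC replicate 3 was 2.63 times as high as TRC replicate 1. The means were 1.78 ± 0.56 CPM (SD, n = 2) and 10.8 ± 6.86 CPM (SD, n = 2). This was the largest log2 fold change among the 8 genes, at 2.59 (SE 0.52, FDR = 7.98e-05). In the quasi-likelihood test of edgeR without a replicate block its FDR was 0.0278, and without TRC replicate 3 the log2 fold change was 1.73 with an FDR of 0.0518, which misses the threshold. An antisense gene, *Gm12454*, overlaps *Car9* over 1782 bases with 4, 1, 10 and 14 counts in the same order of libraries. The strand setting of the counting is not given in the sources used here. On either strand, 2.49% of the stretches of 100 bases in the longest *Car9* transcript also occurred in annotated transcripts of other genes, which can include the antisense gene.

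As in *Car9*, TRC replicate 3 was the higher TRC library in hypoxia response genes, though barely so for *Ndrg1*. A list of 12 such genes, among them *Vegfa*, *Pgk1*, *Ldha*, *Pdk1* and *Bnip3*, was chosen with earlier results of these data known and is given here as context. All 12 were higher in TRCs at FDR under 0.05 in edgeR's exact test, a call made for 8.81% of all genes tested. Their median log2 fold change was 2.08, against 0.0034 over all genes tested. The quasi-likelihood test and DESeq2's Wald test each called 10 of the 12, and 9.18% and 17.7% of all genes tested. Neither called *Vegfa* (FDR = 0.0747 and 0.163), whose parental libraries were far apart, at 101 and 22.9 CPM. Within the TRC group, replicate 3 exceeded replicate 1 for all 12 (median difference 1.04 in log2(CPM + 0.5)). The same held for 5753 of the 11483 genes tested, with a median difference of 0.00091. For *Ndrg1* the TRC libraries were nearly equal, at 230 and 233 CPM. In the parental group, 7 of 12 were higher in replicate 3 than in replicate 1, as were 5800 of the genes tested. The smallest FDR in the list was that of *Bnip3*, a mitophagy receptor, with 29.2 and 19.7 CPM in parental cells and 476 and 1239 CPM in TRCs (log2 fold change 5.13, SE 0.38, FDR = 2.37e-27). The part of this difference between libraries in the *Car9* result was not tested.

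The genes whose profile over the 4 libraries was closest to that of *Car9* were *Pfkp*, *Ier3* and *Fam78a*, by Euclidean distance between log2(CPM + 0.5) values centered on their mean. The distances were 0.0806, 0.25 and 0.259. *Pfkp* encodes a phosphofructokinase of glycolysis and was at 116 and 87.3 CPM in parental cells and 303 and 735 CPM in TRCs. *Ier3*, an immediate early response gene, was at 37.4 and 29.4 CPM in parental cells and 105 and 291 CPM in TRCs. *Fam78a* was at 0.651 and 0.311 CPM in parental cells and 1.92 and 5.14 CPM in TRCs. With only 4 libraries, such likeness is a description.

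**Figure D2:**
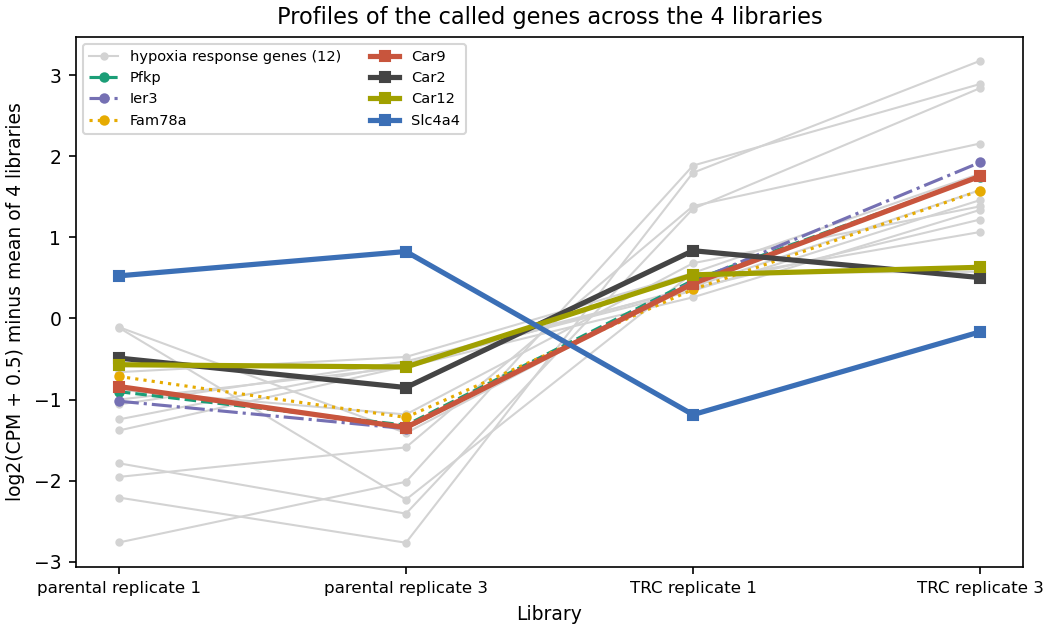
log2(CPM + 0.5) minus the gene's mean over the 4 libraries (y axis) in each library (x axis), for the 4 called genes (squares), the 3 genes closest to *Car9* (broken lines) and 12 hypoxia response genes (grey). *Car9* and *Slc4a4* are higher in TRC replicate 3 than in the other TRC library, *Car2* is lower there, and *Car12* differs little between them.

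*Car12* (ENSMUSG00000032373, chromosome 9 from 66713686 to 66766845, plus strand) encodes another membrane anhydrase with an outward catalytic domain. It was at 1.48 and 1.44 CPM in parental cells, from 66 and 51 counts, and at 3.77 and 4.06 CPM in TRCs, from 157 and 169 counts. Replicates were close in both groups, and the groups did not overlap. The log2 fold change was 1.42 (SE 0.49, FDR = 0.0178). The FDR was 0.0627 in the quasi-likelihood test and between 0.068 and 0.156 with each of the 4 libraries left out in turn, while the log2 fold change stayed between 1.36 and 1.45.

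*Car14* (ENSMUSG00000038526, chromosome 3 from 95897768 to 95904691, minus strand) encodes the third membrane anhydrase of the set. Its level was 358 and 345 CPM in parental cells and 396 and 355 CPM in TRCs, so the groups overlapped. The log2 fold change was 0.095 (FDR = 0.836), with a 95% interval from −0.27 to 0.46 from DESeq2. *Car14* overlaps *Aph1a* on the opposite strand over 521 bases. Counting both strands, 21.6% of the stretches of 100 bases in its longest transcript also occur in transcripts of other genes, which can include *Aph1a*. Its count may therefore miss ambiguous reads. Per length of exon, *Car14* made up between 95.01% and 99.4% of the summed level of the 3 membrane anhydrases in each library. The share of *Car9* in this sum was 0.667% and 0.441% in parental cells and 1.63% and 4.62% in TRCs, and that of *Car12* was at most 0.364%.

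*Car2* (ENSMUSG00000027562, chromosome 3 from 14886273 to 14900770, plus strand) encodes a cytosolic anhydrase known for its very high turnover. It had 55 and 30 counts in parental cells and 160 and 123 counts in TRCs. The levels were 1.24 and 0.849 CPM in parental replicates 1 and 3 and 3.84 and 2.95 CPM in TRC replicates 1 and 3. Both TRC libraries were above both parental libraries, and the log2 fold change was 1.70 (SE 0.56, FDR = 0.00697). Here TRC replicate 3 was the lower TRC library, at 0.768 times the level of TRC replicate 1, opposite to *Car9*. The FDR was 0.0533 in the quasi-likelihood test, 0.123 without parental replicate 3 and 0.144 without TRC replicate 1.

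*Car13* (ENSMUSG00000027555, chromosome 3 from 14641727 to 14663002, plus strand), which encodes the other cytosolic anhydrase of the set, lies on the same chromosome as *Car2*. Its level was 61.4 and 71.7 CPM in parental cells and 53.9 and 58.0 CPM in TRCs. The groups did not overlap, but the log2 fold change of −0.25 did not pass the test (FDR = 0.498), with a 95% interval from −0.67 to 0.17. Per length, *Car13* had a mean level of 24.3 CPM per kb of exon in TRCs and *Car2* one of 1.40. The cytosolic anhydrase that rose was thus the less abundant of the pair.

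*Slc4a4* (ENSMUSG00000060961, chromosome 5 from 88886818 to 89239653, plus strand) encodes an electrogenic sodium bicarbonate cotransporter. It was at 15.6 and 19.3 CPM in parental cells, from 695 and 683 counts, and at 4.42 and 9.48 CPM in TRCs, from 184 and 395 counts. Both TRC libraries were below both parental libraries, and TRC replicate 3 was 2.15 times as high as TRC replicate 1. The log2 fold change was −1.33 (SE 0.40, FDR = 0.0148). The FDR was 0.0674 in the quasi-likelihood test, 0.148 without parental replicate 3 and 0.288 without TRC replicate 1, where the log2 fold change was −0.90. Without TRC replicate 3 it was −1.99. Counts are per gene, so the transcripts from its separate starts were not told apart.

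*Slc4a7* (ENSMUSG00000021733, chromosome 14 from 14702279 to 14799940, plus strand) encodes an electroneutral sodium bicarbonate cotransporter. It was at 97.3 and 87.5 CPM in parental cells and at 145 and 99.1 CPM in TRCs. The groups did not overlap, but TRC replicate 3 lay close to parental replicate 1. The log2 fold change was 0.40 (FDR = 0.285), with a 95% interval from −0.080 to 0.89, and it was 0.085 without TRC replicate 1.

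*Slc4a2* (ENSMUSG00000028962, chromosome 5 from 24423837 to 24440950, plus strand) encodes a chloride bicarbonate exchanger, an acid loader. Its level was 154 and 158 CPM in parental cells and 118 and 132 CPM in TRCs. The groups did not overlap, but the log2 fold change of −0.32 did not pass the test (FDR = 0.37), with a 95% interval from −0.70 to 0.063. *Slc4a2* overlaps *Fastk* on the opposite strand over 2511 bases.

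Per length of exon, *Car14* had the highest level of the 8 genes in both groups, with means of 138 ± 3.44 CPM per kb (SD, n = 2) in parental cells and 148 ± 11.4 CPM per kb (SD, n = 2) in TRCs. In parental cells *Car13*, *Slc4a2*, *Slc4a7*, *Slc4a4*, *Car9*, *Car2* and *Car12* followed in this order, from 28.9 down to 0.193 CPM per kb, and the values of neighbors in the order did not overlap. In TRCs *Car9* moved ahead of *Slc4a4*, and so did *Car2*. The level of *Car9* in TRCs was 4.69 ± 2.98 CPM per kb (SD, n = 2) and overlapped that of *Slc4a7*, at 8.04 ± 2.15 CPM per kb (SD, n = 2). The level of *Slc4a4* in TRCs, 0.643 ± 0.331 CPM per kb (SD, n = 2), overlapped that of *Car12*, at 0.515 ± 0.0266 CPM per kb (SD, n = 2). When the longest transcript was used as the length, *Slc4a2* came before *Car13* in both groups and *Car12* before *Slc4a4* in TRCs.

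Among the 11 other carbonic anhydrases, 8 had a count and 5 were tested, of which 2 were higher in TRCs and 0 lower. These calls were made for 8.81% and 7.05% of all genes tested. *Car11*, which encodes a related protein without the catalytic activity, was at 1.68 and 0.396 CPM in parental cells and 6.44 and 2.71 CPM in TRCs (log2 fold change 2.12, SE 0.73, FDR = 0.0136). *Car5b*, which encodes a mitochondrial enzyme, was at 1.10 and 0.538 CPM in parental cells and 2.67 and 2.09 CPM in TRCs (log2 fold change 1.52, SE 0.67, FDR = 0.0306). *Car11* kept the call in 9 of 12 alternative settings and lost it in the quasi-likelihood test without a replicate block (FDR = 0.0968) and without parental replicate 3 or TRC replicate 1, and its log2 fold change was 3.52 without parental replicate 1 and 1.35 without TRC replicate 1. *Car5b* kept it in 5 of 12, and lost it in the quasi-likelihood test without and with the block (FDR = 0.0965 and 0.0781), in DESeq2's Wald test (FDR = 0.0988), without a filter (FDR = 0.0534) and without parental replicate 3, TRC replicate 1 or TRC replicate 3. Its log2 fold change was 2.14 without parental replicate 1 and 1.11 without parental replicate 3. The gene of this list with the highest mean, named after its values were seen, was *Car6*, which encodes the secreted anhydrase known from saliva, at 219 and 357 CPM in parental cells and 209 and 427 CPM in TRCs. *Car6* differed between the replicates within each group, with the higher value in replicate 3, and the groups overlapped (log2 fold change 0.14, FDR = 0.832). Per length, *Car14* and *Car6* together dominated the family. *Car6* made up between 37.8% and 57.1% of the summed level in each library, *Car14* between 33.9% and 51.1%, and *Car9* at most 1.65%.

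Among the 7 other SLC4 genes, 5 had a count and 2 were tested, and 1 was called, against 15.9% of all genes tested. *Slc4a8* (ENSMUSG00000023032, chromosome 15 from 100761747 to 100823968), which encodes a sodium-driven chloride bicarbonate exchanger, was at 33.6 and 25.0 CPM in parental cells and 74.2 and 75.4 CPM in TRCs. The TRC libraries agreed closely and lay above both parental libraries, and the log2 fold change was 1.35 (SE 0.24, FDR = 1.90e-06). The call was kept under all 12 alternative settings, with FDR values up to 0.0249. The summed level of the SLC4 family per length was 31.1 and 30.0 CPM per kb in parental cells and 32.6 and 31.1 in TRCs, while its composition differed. The share of *Slc4a8* was 8.30% and 6.41% in parental cells and 17.5% and 18.6% in TRCs, that of *Slc4a4* was 4.64% and 5.97% against 1.25% and 2.82%, and that of *Slc4a2* was 59.7% and 63.4% against 43.6% and 51.2%. These sums and shares depend on the length used, here that of all exons, 8322 bases for *Slc4a2* and 13021 for *Slc4a8*. Their longest transcripts have 4264 and 11790 bases.

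**Figure D3:**
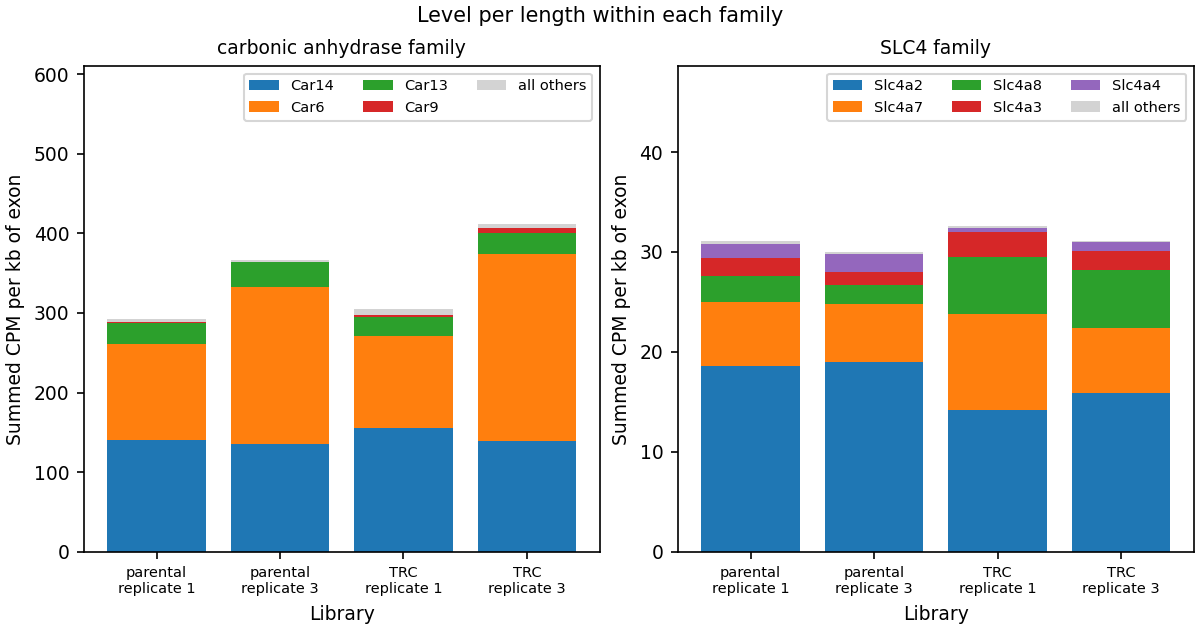
Stacked bars of CPM per kb of exon (y axis) in each library (x axis) for all carbonic anhydrase genes (left) and all SLC4 genes (right). *Car14* and *Car6* fill most of each bar on the left, and on the right the bars have similar heights, with a larger *Slc4a8* segment and a smaller *Slc4a4* segment in TRCs.

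Genes of other acid transporters were described in the same way. Of 9 sodium-proton exchanger genes, which export protons in exchange for sodium, 5 were tested and 0 were called by edgeR's exact test, its quasi-likelihood test or DESeq2, with 1 at an unadjusted p under 0.05 in the exact test. All 5 had log2 fold changes above 0, with a median of 0.48. Among all 11483 genes tested, 5773 were above 0, with a median of 0.0034.

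Of 6 genes of proton-linked lactate transport, 4 were tested and 2 were higher in TRCs, a call made for 8.81% of all genes tested. *Slc16a3*, which encodes the lactate exporter MCT4, was at 7.12 and 1.84 CPM in parental cells and 111 and 224 CPM in TRCs (log2 fold change 5.22, SE 0.97, FDR = 1.10e-17). *Bsg*, which encodes the chaperone basigin that carries lactate transporters to the membrane, was at 324 and 335 CPM in parental cells and 681 and 1387 CPM in TRCs (log2 fold change 1.65, SE 0.31, FDR = 7.56e-06). TRC replicate 3 was the higher TRC library for both, at 2.03 times the other for *Slc16a3* and 2.04 times for *Bsg*. Both calls were kept under all 12 alternative settings, but the size moved with single libraries. The log2 fold change of *Slc16a3* was 6.51 without parental replicate 1, 4.56 without parental replicate 3 and 4.61 without TRC replicate 3. That of *Bsg* was 1.04 without TRC replicate 3.

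**Figure D4:**
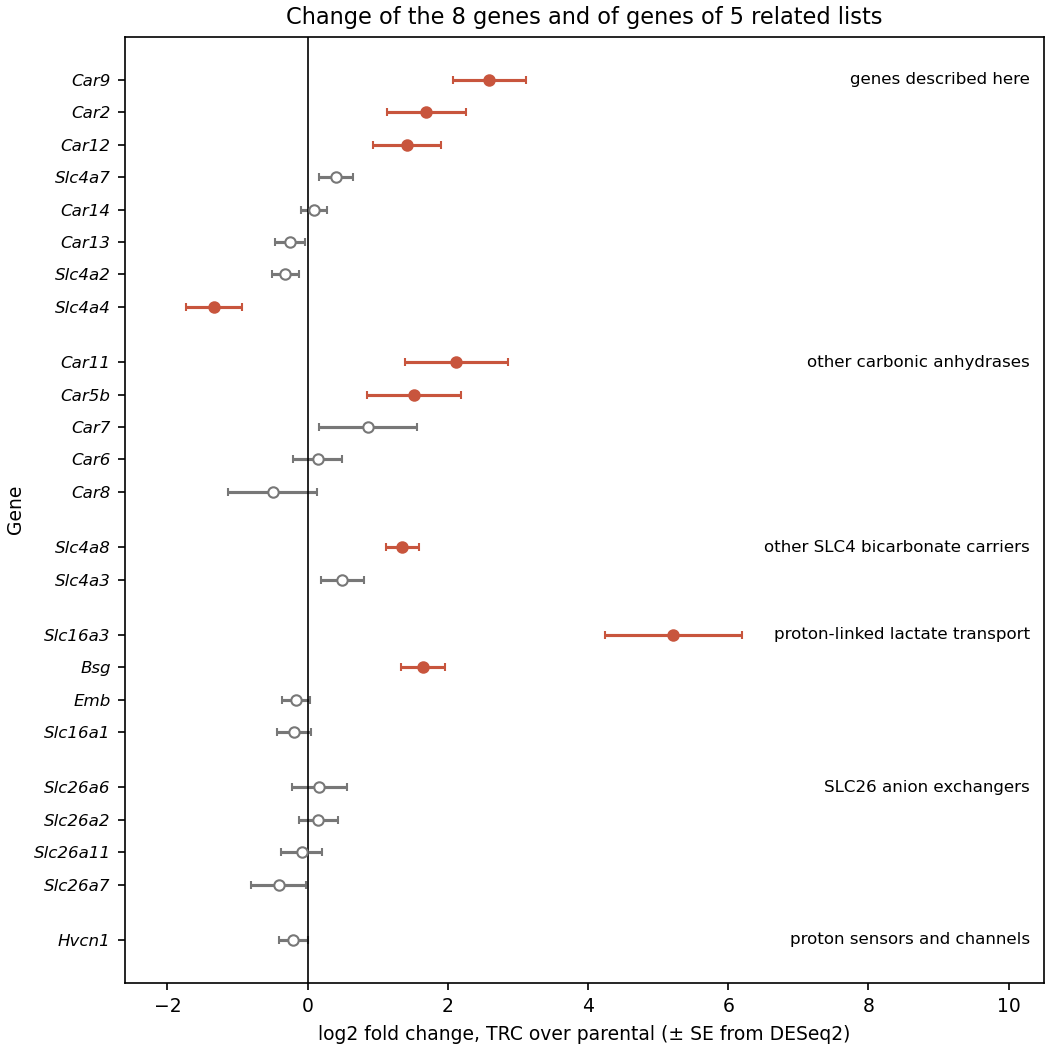
log2 fold change of TRC over parental cells (x axis) with its SE from DESeq2 for the 8 genes and for the tested genes of 5 related lists (y axis), with filled red points for an FDR under 0.05. The called genes are *Car9*, *Car2*, *Car12* and *Slc4a4* of the 8 genes, and *Car11*, *Car5b*, *Slc4a8*, *Slc16a3* and *Bsg* of the related lists, and *Slc4a4* is the only red point below 0.

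The calls among the 8 genes depended on the test and on single libraries. The 4 called genes kept their directions, but their groups did not overlap, so this was largely set in advance. DESeq2's Wald test, which called 17.7% of all genes tested, called the same 4 genes, with FDR values of 2.46e-05 for *Car9*, 0.00903 for *Slc4a4*, 0.0188 for *Car2* and 0.0252 for *Car12*. The quasi-likelihood test called 1 of the 8, *Car9*, where it called 9.18% of all genes tested. Across the 12 alternative settings, *Car9* was called in 10, *Car2* and *Slc4a4* in 8 and *Car12* in 6.

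**Figure D5:**
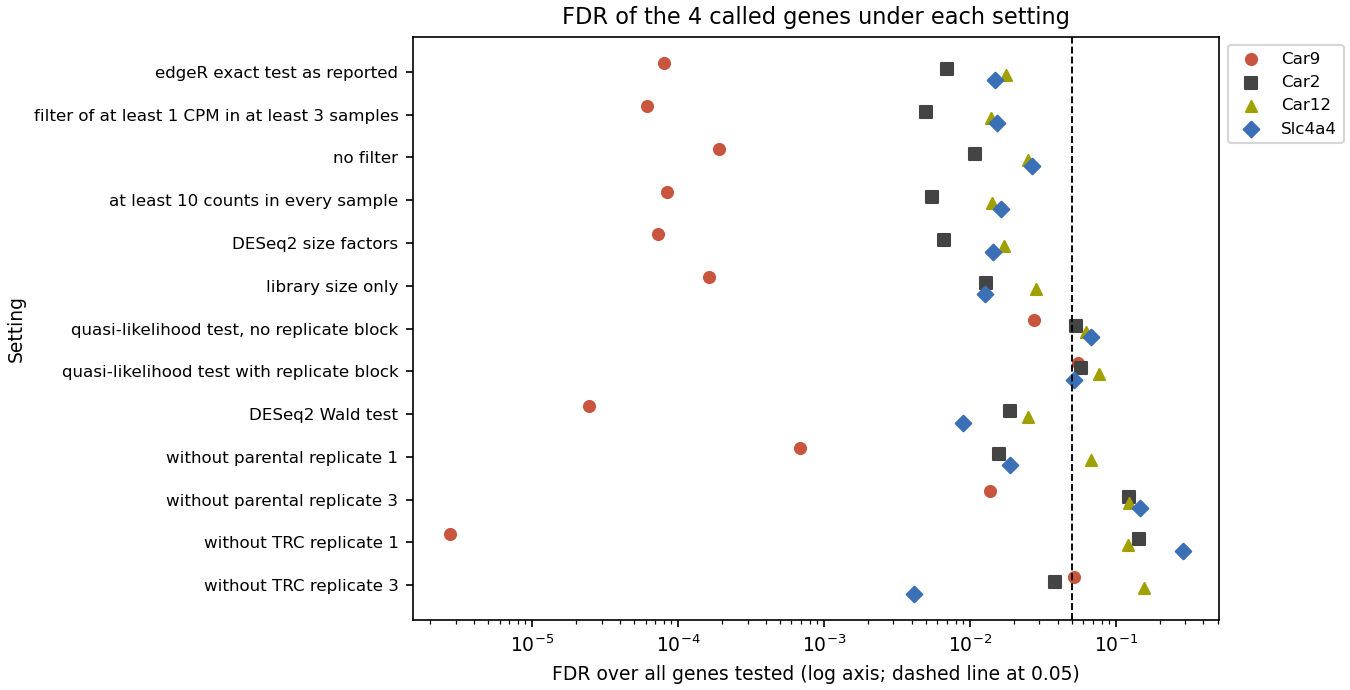
FDR on a log axis (x axis) of the 4 called genes under the test as reported and 12 alternative settings (y axis), with a dashed line at 0.05. *Car9* lies to the left of the line in all but 2 alternatives, the quasi-likelihood test with replicate block and the test without TRC replicate 3, while *Car12* lies to the right whenever a library is left out.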

How the data were processed

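RNA was measured in 4 libraries, 2 parental and 2 TRC, prepared from poly(A) RNA with a stranded kit. Per the labels and the study's methods, trimming (Trimmomatic 0.35, single-end mode) was followed by alignment to GRCm38 by TopHat2 2.1.0. The values deposited by the authors are raw counts per Ensembl gene from htseq-count, and the mode and strand setting of the counting are not given in the sources used here. The 5 totals of unassigned alignments listed with each library were left out. They include alignments that were not unique, 15.2% to 25.2% of all alignments.

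Genes with less than 1 CPM in at least 3 of 4 libraries were removed, counts were TMM-normalized, and groups were compared with edgeR 4.0.16 (exact test, common and tagwise dispersions) under R 4.3.3. SEs and 95% intervals came from DESeq2 1.42.0. FDR is the Benjamini-Hochberg value over all 11483 genes tested. CPM is counts over the TMM-scaled total on genes. Exon lengths and symbols came from GENCODE M21 on GRCm38, which is not the annotation release used for counting, and starts from RefSeq on GRCm38.p6. The gene lists, the 8 genes and the tests were chosen with earlier results of these data known. All 8 genes are named, and of the related lists each called gene or otherwise that with the highest mean, with *Car6* added, apart from genes that are not reported here. Of the hypoxia list, the gene with the smallest FDR is described, and for *Car9*, the called gene with the largest change, the 3 closest profiles. Alternatives were 3 other filters, 2 normalizations, 3 other tests and each library left out, where the lone library of a group was assumed to vary like the other group. The tests were also run on simulated counts in which all genes had the same dispersion, unlike the fit used here, and no result rests on that run. Plots used matplotlib 3.10.9 under Python 3.11.15.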

Additional observations from a re-analysis of the deposited data

Results flagged for a closer look

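Alignments that were not unique lie outside the counts compared here, and their share was above the higher parental value in both TRC libraries. It was 18.3% in TRC replicate 1 and 25.2% in TRC replicate 3, against 15.2% and 17.1% in parental replicates 1 and 3. Of the longest transcripts of *Car2*, *Car12*, *Car13*, *Slc4a4* and *Slc4a7*, 0 of the stretches of 100 bases occurred in annotated transcripts of other genes. The share was 2.49% for *Car9*, 7.54% for *Slc4a2* and 21.6% for *Car14*. Matches on either strand were counted, and each of these genes overlaps a gene on the opposite strand. Their shares can therefore include bases of the overlapping gene, which need not align more than once, and do not measure alignments that were not unique. The part of alignments that were not unique in the results was not tested.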

How the results depend on the processing

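No direction among the 4 called genes changed under any of the 12 alternatives. The groups of these genes did not overlap, so this was largely set in advance. *Car14*, which was not called, had log2 fold changes from −0.0020 (without TRC replicate 1) to 0.16 with each library left out. The 3 other filters, both normalizations and DESeq2's Wald test kept the 4 calls. The quasi-likelihood test without a block called 1054 genes in all, 1 of the 8 and 3 of the related lists (against 1822, 4 and 5), with log2 fold changes of 1.70 for *Car2*, 1.42 for *Car12* and −1.33 for *Slc4a4*. Same-numbered libraries deviated together with r = 0.027 across genes. With 2 libraries per group, this value cannot show whether equal numbers mark a shared batch. The numbers were not taken as pairs in the test as reported. With the replicate block the quasi-likelihood test called 785 genes in all, 0 of the 8, with log2 fold changes (and FDR) of 2.45 (0.0553) for *Car9*, 1.71 (0.0576) for *Car2*, 1.42 (0.0772) for *Car12* and −1.42 (0.0522) for *Slc4a4*. With each library left out in turn, between 773 and 1932 genes, between 1 and 3 of the 8 and between 3 and 6 of the related lists were called, with fewer samples in the fit. The log2 fold changes then ranged from 1.73 to 3.11 for *Car9*, 1.46 to 1.997 for *Car2*, 1.36 to 1.45 for *Car12* and −1.99 to −0.90 for *Slc4a4*. With the longest transcript as length, the mean CPM per kb in parental cells and TRCs was 206 and 220 for *Car14*, 36.6 and 29.4 for *Slc4a2*, 11.4 and 15.0 for *Slc4a7*, 0.583 and 1.90 for *Car2*, and 0.394 and 1.05 for *Car12*, and 2.203 for *Slc4a4* in parental cells. Sums and shares within the families were computed with the length of all exons only. The cause was not tested for the tests and single libraries. CPM over raw totals left the 1 value below 1 CPM. *Car2*, *Car9* and *Car12* rest on 30 to 97 counts per parental library, which limits their precision.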

Other observations

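Of 9 genes of SLC26 anion exchangers, 4 were tested and 0 were called by edgeR's exact test, its quasi-likelihood test or DESeq2, with 0 at an unadjusted p under 0.05. The highest mean was that of *Slc26a2*, a sulfate transporter gene, with 31.8 and 36.5 CPM in parental cells and 45.5 and 30.5 CPM in TRCs. Of 12 genes of proton sensors and channels, 8 had a count and only *Hvcn1* was tested. *Hvcn1*, which encodes a voltage-gated proton channel, was at 115 and 141 CPM in parental cells and 115 and 108 CPM in TRCs (log2 fold change −0.20, FDR = 0.617 in edgeR's exact test).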
